A study of Mus musculus with 20 samples.

Results

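Described here are the probe sets that were raised in imiquimod-injured mouse epidermis on day 4 and were not, or hardly, higher in the injured than in the unaffected area of recovery skin on day 8. A probe set was taken when its log2(intensity + 16), averaged over the 2 arrays of a group, was at least 1 higher in injured than in unaffected imiquimod skin and less than 0.5 higher in injured than in unaffected recovery skin, in both genotypes. Of 35080 probe sets with distinct values, 538 met the first condition and 28 met both, and these 28 are called members below. They are numbered by the mean of their imiquimod rise over both genotypes, so that member 1 rose most. Members were chosen by their measured values on the imiquimod and recovery arrays. Their rise and recovery difference are therefore given as a description and without a test. Genotype differences on the same arrays were tested, but not independently of that choice.

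The study measured gene expression in dorsal epidermis of adult C57B6 mice on 20 arrays, in 10 groups of 2 biological replicates. Every condition had Grhl3 WT and Grhl3 cKO mice (conditional knockout), and the titles name Krt14cre, a Cre recombinase under the keratin 14 promoter that acts in keratinocytes, for both genotypes. The conditions were wax-stripped skin on day 4 (mice labelled male), unaffected and injured areas after imiquimod on day 4 (labelled female), and unaffected and injured areas in recovery from imiquimod on day 8 (labelled male). The 20 arrays hold no untouched skin from the wax experiment, and the unaffected skin came from mice that had imiquimod on another area. Median intensity per array lay between 169 and 200 units, and the number of arrays limits the precision.

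Imiquimod cream activates a Toll-like receptor of dendritic cells and macrophages, and the cytokines that follow make keratinocytes divide faster, differentiate abnormally and produce antimicrobial and inflammatory proteins. The inflammation is maintained by repeated application and subsides after the cream is stopped. Genes that rise with the inflammation and return early can therefore be looked for by setting the peak of the response beside the recovery phase. Wax stripping tears off the outer layers without an immune stimulant, and GRHL3 is a transcription factor of keratinocyte differentiation and barrier repair. In whole epidermis a lower signal from fewer cells of a type and from less RNA per cell cannot be told apart.

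No gene is named. The platform's probe table lists 1 symbol for 20 of the 28 member IDs, but the values did not bear out its pairing of IDs and genes. Ribosomal protein genes are transcribed strongly in every cell, and the mean signal of the 212 IDs with such symbols lay, in the median, at percentile 54.4. Olfactory receptors should hardly be transcribed in skin, and their 979 IDs lay at percentile 54.5. The tissue could not be checked against marker genes, nor the knockout against the Grhl3 transcript, for the same reason.

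In 5 probe sets, none of them a member, the arrays labelled female were separated from the male-labelled arrays of the wax and unaffected recovery groups by a gap of at least 3 (3.67 to 6.74) on the log2 scale. In all 5, the 4 injured recovery arrays, also labelled male, were nearer the female level. The recovery difference therefore sets arrays against each other that go apart in more than the injury. Labelled sex, day and experiment also differ between the imiquimod and the recovery arrays and cannot be told apart there.

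**Figure D1:**
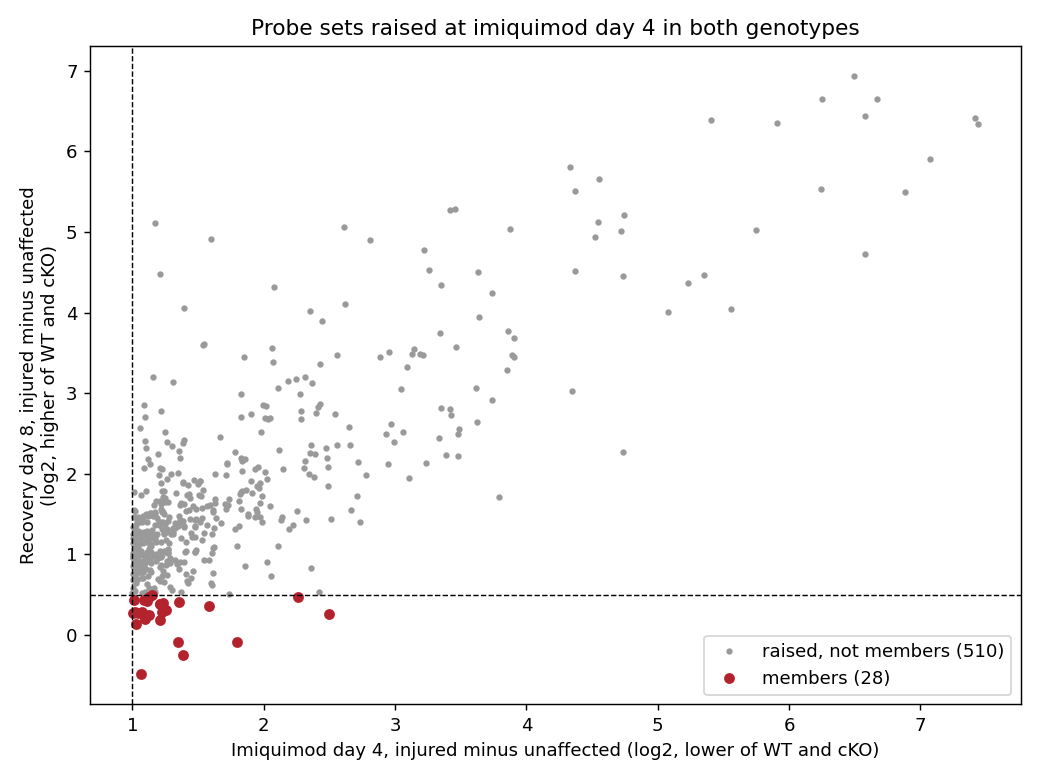
Each point is 1 of the 538 probe sets raised at imiquimod day 4 in both genotypes. The x axis is the smaller of the WT and cKO imiquimod differences and the y axis the larger of the WT and cKO recovery differences (both log2), with dashed lines at the limits of 1 and 0.5. The 28 members lie at the lower left, mostly close to both lines, and the other 510 lie above the limit of 0.5.

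Members were a small and modest fraction of the imiquimod response. Their imiquimod rise, averaged over genotypes, had a median of 1.25 on the log2 scale and ranged from 1.03 to 2.55. In the 464 probe sets whose recovery difference was 0.5 or more in both genotypes, called lasting below, the median was 1.55 and the highest value 7.96. The remaining 46 raised probe sets were under the limit in 1 genotype. Only members 1 and 2 rose by 2 or more, and 20 of the 28 rose by less than 1.5. By mean signal, 4 of them (members 3, 9, 14 and 16) lay below the 25th percentile of all distinct probe sets, where probe sets were not tested.

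Much of this membership was decided near the limits. The members nearest inside the imiquimod limit, members 27, 25 and 28, had lower values of 1.006, 1.014 and 1.024 for their 2 genotypes, and the nearest rows outside had 0.987, 0.986 and 0.985. Nearest inside the recovery limit were members 17, 2 and 9, with higher values of 0.493, 0.477 and 0.475, and the nearest rows outside had 0.513, 0.518 and 0.521. In all, 11 members had an imiquimod value under 1.1 in at least 1 genotype and 8 a recovery value of 0.4 or more. When each of the 16 arrays used was left out in turn, the rule took 21 to 37 probe sets, 16 to 28 of them members, and 4 members (1, 6, 7 and 12) were taken every time. Members 1 and 6 have the IDs 10518847 and 10587315 in the deposited table.

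**Figure D2:**
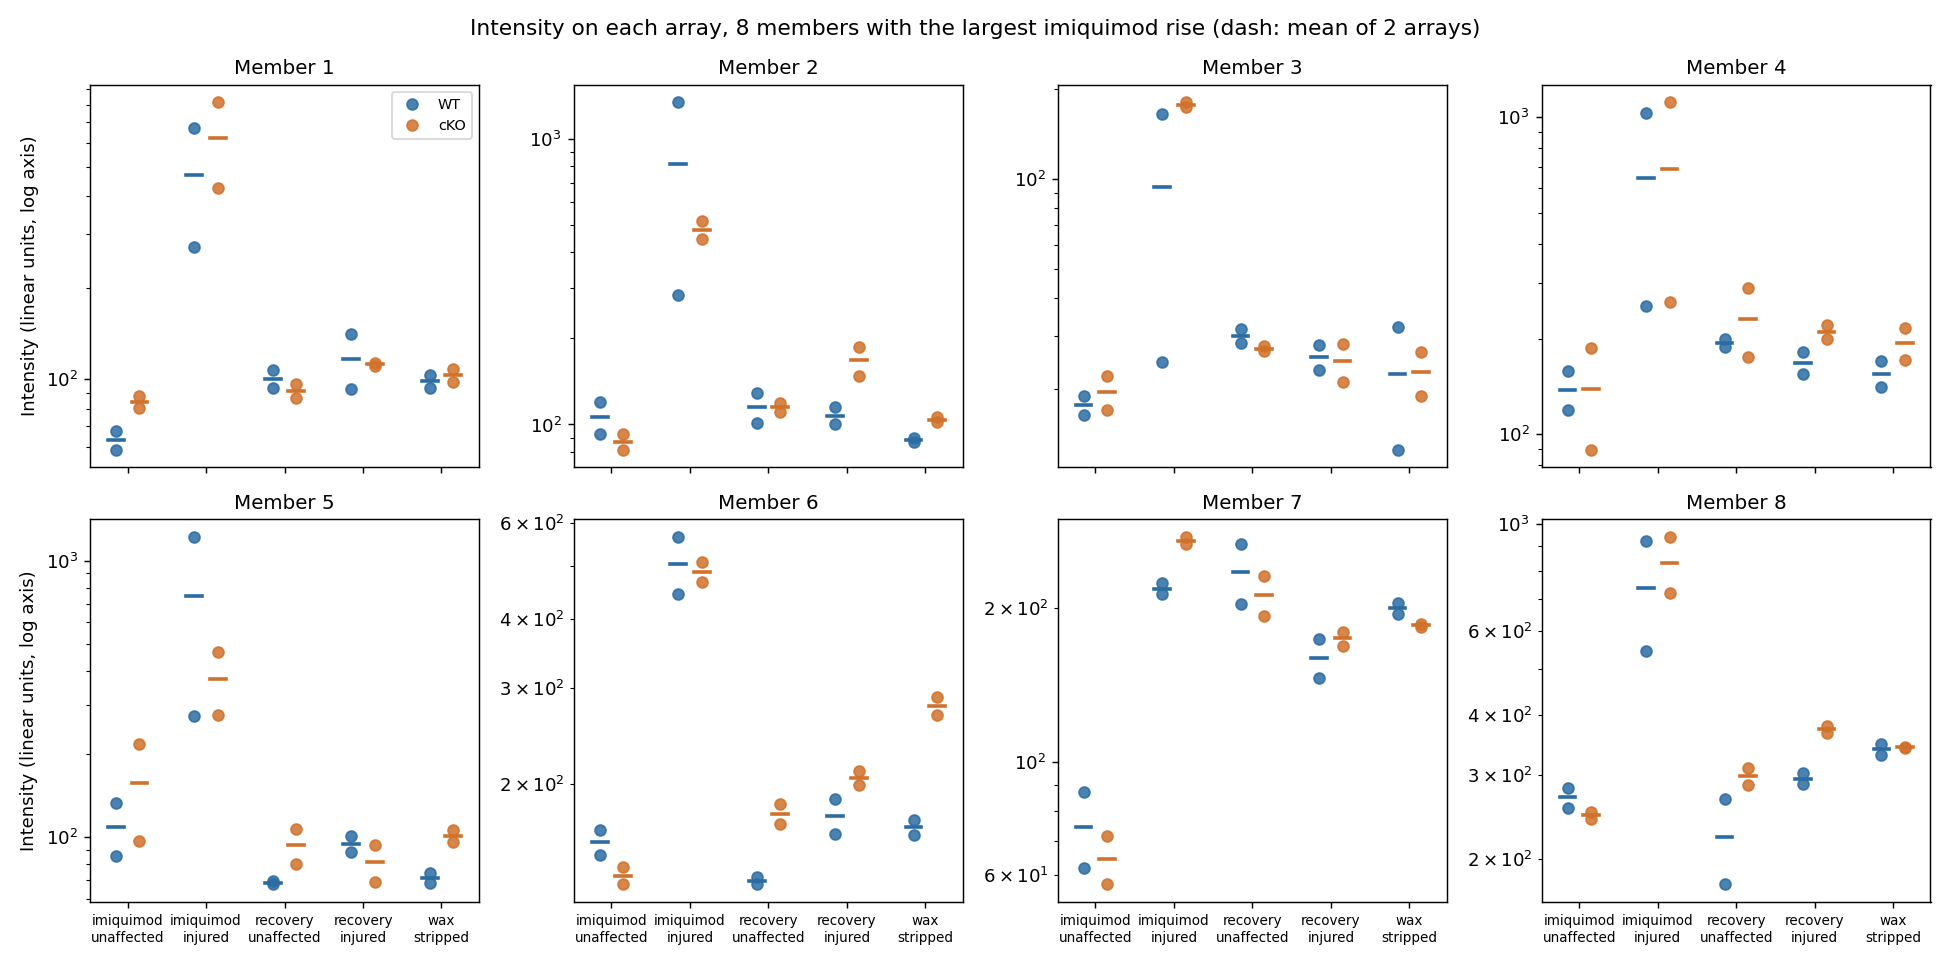
Intensity (linear units on a log axis) of the 8 members with the largest imiquimod rise, 1 panel each. Points are single arrays of WT (blue) and cKO (orange) epidermis in the 5 conditions, and dashes are means of 2 arrays. Injured imiquimod skin stands highest in most panels, and its 2 WT arrays lie far apart in members 1 to 5. In WT mice member 7 is about as bright in unaffected recovery as in injured imiquimod skin.

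Member 1 had the largest rise. It read 58.6 and 67.5 intensity units in unaffected and 272 and 671 in injured imiquimod skin of WT mice, and 80.2 and 88.0 against 426 and 815 in cKO mice. In recovery skin it read 107 and 93.7 in the unaffected and 141 and 93.0 in the injured WT area, and 96.2 and 86.8 against 113 and 111 in cKO mice. Wax-stripped skin read 93.8 and 103 in WT and 98.1 and 108 in cKO mice. Injured imiquimod skin was thus alone at the high level, and all other arrays lay at or below 141. The log2 rise was 2.49 in WT and 2.60 in cKO epidermis.

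Member 2 read 92.7 and 120 in unaffected WT imiquimod skin, and 284 and 1342 in the injured area. In cKO mice the arrays read 81.5 and 92.8 in the unaffected and 446 and 514 in the injured area. Both recovery areas and wax-stripped skin read 86.6 to 187, far below the injured cKO arrays and below both injured WT arrays. The highest of these, 187 and 148, were the injured recovery arrays of cKO mice, where the recovery difference of 0.48 was just under the limit.

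In members 3, 4 and 5 the 2 injured imiquimod arrays of WT mice lay far apart. Member 3, a dim probe set, read 24.6 and 164 in injured WT skin against 18.9 and 16.3 in unaffected skin, and 180 and 174 against 17.0 and 22.0 in cKO mice. Member 4 read 254 and 1035 in injured WT skin and 1116 and 262 in injured cKO skin, from 158 and 119 and from 188 and 89.4 in unaffected skin. Member 5 read 275 and 1221 in injured WT skin and 276 and 469 in injured cKO skin, from 133 and 85.6 and from 96.7 and 217. In 1 genotype of each, the lower injured array was close to the higher unaffected array, at 24.6 against 18.9 (member 3, WT), 262 against 188 (member 4, cKO) and 276 against 217 (member 5, cKO). In the other genotype the same arrays were further apart, at 174 against 22.0, 254 against 158 and 275 against 133. Their levels in recovery skin were 21.1 to 31.5 for member 3, 155 to 289 for member 4 and 67.5 to 107 for member 5.

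The WT array that read high in these members was the same one. Injured imiquimod WT replicate 2 exceeded replicate 1 by at least 1 on the log2 scale in 7 of the 28 members (1, 2, 3, 4, 5, 16 and 20) and lay below it by that much in none. Among all distinct probe sets 0.584% differed so in the first direction and 0.510% in the second, and among the lasting ones 20 of 464 and 6 of 464. Member 20 read 43.1 and 249 in injured WT skin against 39.5 and 50.1 in unaffected skin, so its 2 areas overlapped. Without replicate 2 the rule took 21 probe sets, 16 of them members. The arrays entered the rule, so this is a description, and the part of that array in the selection of single members was not tested otherwise.

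Member 6 was among the tightest. It read 165 and 148 in unaffected and 566 and 445 in injured imiquimod skin of WT mice, and 131 and 141 against 469 and 509 in cKO mice. In recovery skin the WT arrays read 135 and 131 in the unaffected and 162 and 188 in the injured area, and the cKO arrays 169 and 184 against 199 and 211. The injured recovery arrays all lay above the unaffected ones of their genotype, but far below the level of day 4. Member 8 had a similar course, with 256 to 282 in unaffected and 545 to 925 in injured WT imiquimod skin, and 243 to 251 against 718 to 942 in cKO mice. Its injured recovery arrays read 302 and 287 in WT and 380 and 367 in cKO mice.

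Member 12 was the only member taken every time an array was left out that was also under the recovery limit when measured from unaffected imiquimod skin. Its injured recovery skin lay 0.08 (WT) and 0.37 (cKO) above unaffected imiquimod skin on the log2 scale. It did not return fully, because all 4 of its injured recovery arrays lay above all 4 unaffected imiquimod arrays. It read 2632 ± 136 in unaffected and 6378 ± 1409 in injured WT imiquimod skin, and 2301 ± 141 against 5925 ± 113 in cKO mice (SD, n = 2 each). In recovery it read 2262 ± 154 in the unaffected and 2773 ± 22 in the injured area of WT mice, and 2392 ± 71 against 2978 ± 314 in cKO mice (SD, n = 2 each). Injured imiquimod skin stood above all 16 other arrays in this member and in 16 further ones (17 of 28), against 4.67% of all distinct probe sets. That order is partly what the rule asked for, so nothing is read from the count.

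**Figure D3:**
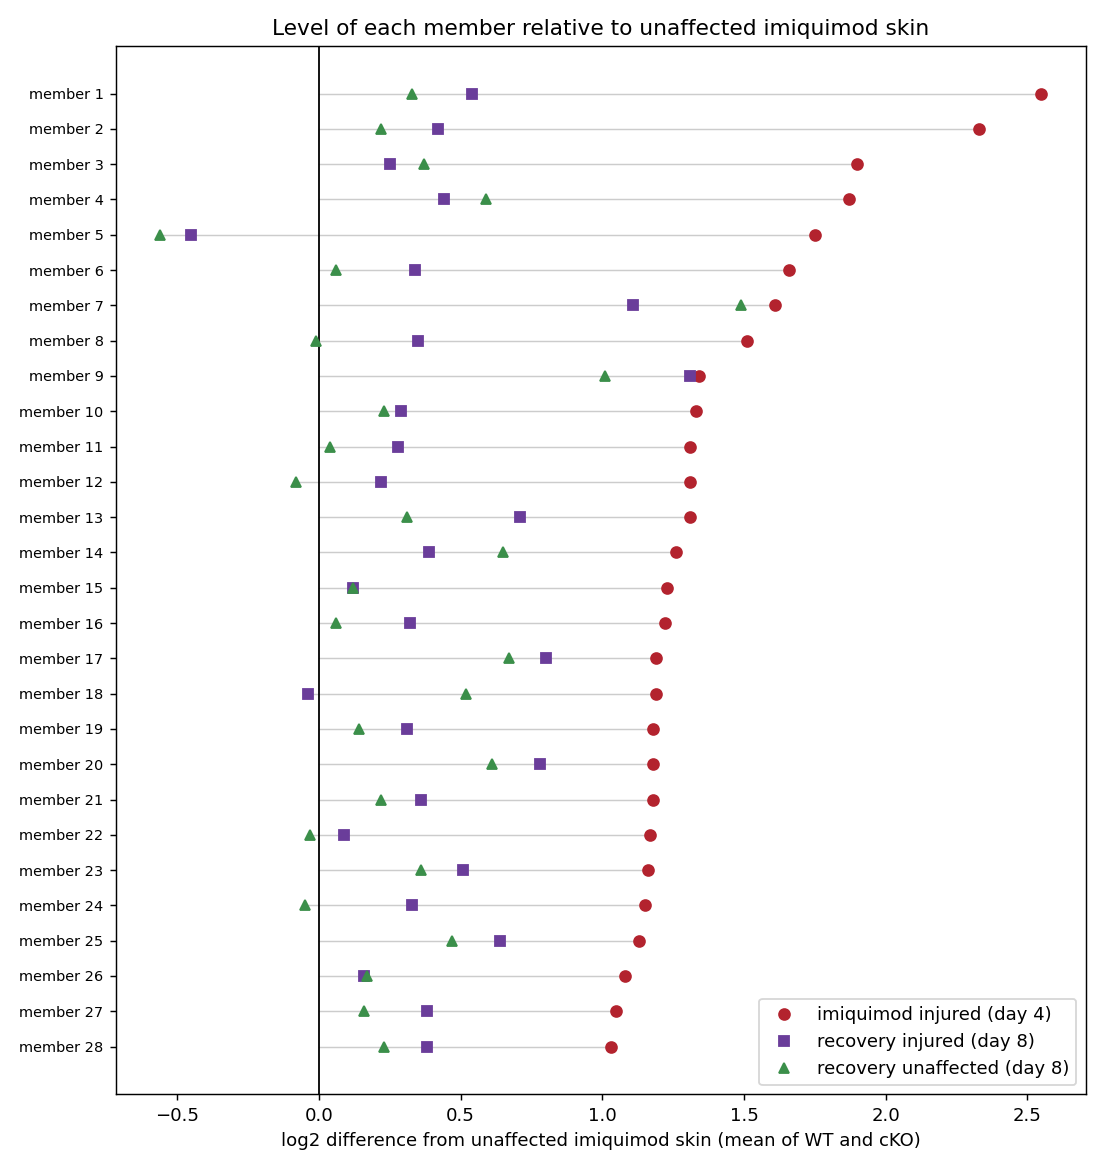
Level of each of the 28 members relative to unaffected imiquimod skin (log2, mean of WT and cKO, 0 at the black line). Red circles are injured imiquimod skin, purple squares injured recovery skin and green triangles unaffected recovery skin. Most squares lie nearer to the line than to the circles, while in members 7 and 9 both recovery areas lie near the circle.

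A return in recovery was then looked at from the other baseline, unaffected imiquimod skin, because a small recovery difference can also come from a high unaffected area. The arrays compared here differ in labelled sex, day and experiment. Injured recovery skin lay a median of 0.35 above unaffected imiquimod skin on the log2 scale (members' range -0.45 to 1.31) and differed from injured imiquimod skin by a median of -0.91 (range -2.20 to -0.02). As a share of the day 4 rise on this scale, a median of 24.9% was left, from -25.9% in member 5 to 98.3% in member 9. The lasting probe sets, with a median of 75.6%, were chosen to be high in this area. All 4 injured recovery arrays lay below all 4 injured imiquimod arrays in 20 of 28 members, against 11.2% of all distinct probe sets; the rule used both groups.

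By this baseline 14 of the 28 members counted as back in both genotypes, with injured recovery skin less than 0.5 above unaffected imiquimod skin. These were members 3, 5, 10, 11, 12, 15, 16, 18, 19, 21, 22, 24, 26 and 27. In 6 members this held in WT mice alone (2, 4, 6, 8, 14 and 28), in 2 in cKO mice alone (1 and 23), and in 6 in neither genotype (7, 9, 13, 17, 20 and 25). By a limit of 0.5, the name "resolved in recovery" thus fits the first 14 from both baselines. It fits the last 6 by comparison with the unaffected recovery area alone. The limit does not mean a full return. In members 12, 19, 24 and 27 of the first 14, all 4 injured recovery arrays lay above all 4 unaffected imiquimod arrays. Member 22 was one of the 14 with little spread. It read 211 ± 7.8 in unaffected and 521 ± 20 in injured imiquimod skin of WT mice, and 206 ± 1.5 and 247 ± 14 in the unaffected and injured areas in recovery (SD, n = 2 each).

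Members 7 and 9 were the clearest cases of a high unaffected area. Member 7 read 74.5 ± 18 in unaffected and 218 ± 7.4 in injured imiquimod skin of WT mice (SD, n = 2 each). In recovery its unaffected WT area read 235 ± 45 and its injured area 160 ± 19, and wax-stripped WT skin read 200 ± 6.8 (SD, n = 2 each). The cKO groups read 64.5 ± 10 in unaffected and 271 ± 6.7 in injured imiquimod skin (SD, n = 2 each). In recovery they read 212 ± 27 and 175 ± 7.5, and after wax stripping 185 ± 1.6 (SD, n = 2 each). The brightest group was injured imiquimod skin in cKO mice and unaffected recovery skin in WT mice. Unaffected imiquimod skin was the only low condition. Unaffected recovery skin lay 1.49 above it on the log2 scale, and 68.7% of the day 4 rise was left in injured recovery skin.

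Member 9, a dim probe set below the filter, was low in unaffected imiquimod skin as well. It read 24.0 and 19.6 there in WT and 45.3 and 14.2 in cKO mice, and 134 and 65.2 (WT) and 74.9 and 80.8 (cKO) in injured imiquimod skin. Its 8 recovery arrays read 58.2 to 96.9 and its wax arrays 55.4 to 92.5, so these overlapped with the injured imiquimod arrays.

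Unaffected recovery skin lay at least 0.5 above unaffected imiquimod skin in both genotypes in members 7, 9, 14 and 20. All 4 unaffected recovery arrays exceeded all 4 unaffected imiquimod arrays in members 3, 7, 9, 18 and 25, which is 5 of 28 against 14.2% of all distinct probe sets. In member 18, as in members 3 and 7, the mean of the injured area was lower than that of the unaffected area in recovery in both genotypes. It read 277 and 234 in the unaffected and 199 and 158 in the injured WT area, and 301 and 259 against 161 and 192 in cKO mice. Its injured arrays were thus at the level of unaffected imiquimod skin, 166 to 207. The recovery difference was under 0 in both genotypes in 4 members (3, 4, 7 and 18) and 0 or more in both in 15.

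**Figure D4:**
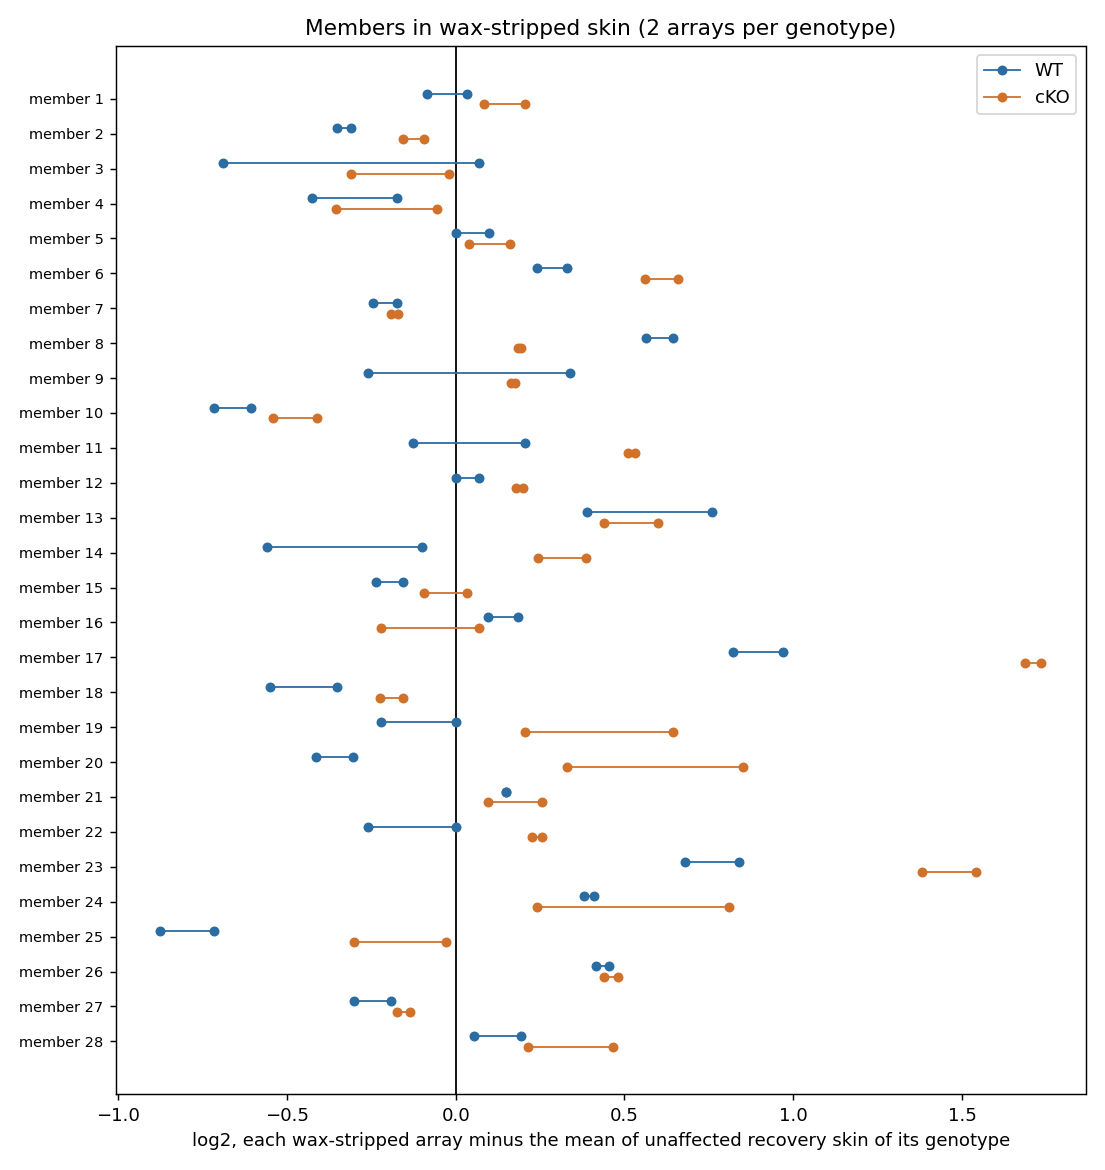
Each wax-stripped array of the 28 members minus the mean of unaffected recovery skin of its genotype (log2), WT in blue and cKO in orange, with a line joining the 2 arrays of a genotype. Members 17 and 23 lie farthest to the right in both genotypes, most others stay within 0.5 of the line at 0, and the cKO points tend to lie to the right of the WT points.

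The wax arrays took no part in the choice of members. They differ from the imiquimod arrays in labelled sex and experiment, and from the recovery arrays in day and experiment. In the comparisons with those arrays these cannot be told apart from the injury. Wax-stripped skin is an injured epidermis on day 4 as well, and most members were not at their imiquimod level there. All 4 wax arrays lay below all 4 injured imiquimod arrays in 23 of 28 members, against 15.5% of all distinct probe sets and 73.7% of the lasting ones; the imiquimod side of this order was chosen high. Wax-stripped skin was within 0.5 of unaffected recovery skin in both genotypes in 18 members (share of all probe sets not counted). The median difference was 0.09 on the log2 scale (mean of genotypes), against -0.10 over all distinct probe sets and 1.08 over the lasting ones. Against unaffected imiquimod skin the medians were 0.36, -0.02 and 0.92.

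Unaffected skin served the rule as a baseline, so a test against it is only partly independent: a high unaffected recovery area and a low unaffected imiquimod area both favour membership. Of the 24 members above the filter, limma called 3 between wax-stripped and unaffected recovery skin of WT mice (1 higher, 2 lower; 12.5%, against 22.0% of all 26310 probe sets tested). In cKO mice it called 6, all higher (25% against 24.0%). Against unaffected imiquimod skin it called 5 in WT (20.8% against 19.0%) and 10 in cKO mice (41.7% against 22.4%), all higher. Higher calls alone made up 10.8%, 12.1%, 9.23% and 10.8% of all probe sets in these 4 comparisons. With both directions counted, the first 3 shares of members are near or below those of all probe sets. For higher calls alone, members had 1 of 24 against 10.8% in the first comparison. In the other 3 they had 25% against 12.1%, 20.8% against 9.23% and 41.7% against 10.8%. Without the 4 injured recovery arrays in the fit the 4 counts were 2, 5, 5 and 9. The WT count of 3 became 0 without wax-stripped WT replicate 2 or unaffected recovery WT replicate 1, 1 without wax-stripped WT replicate 1 or unaffected recovery WT replicate 2, and 6 without either injured imiquimod WT array. The cKO count of 6 became 3 without wax-stripped cKO replicate 1 or unaffected recovery cKO replicate 1, and the WT count of 5 became 3 without wax-stripped WT replicate 2 or either unaffected imiquimod WT array.

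Members 17 and 23 were the exceptions, with a higher mean in wax-stripped than in injured imiquimod skin of both genotypes. Member 17 read 864 and 774 in wax-stripped WT and 1373 and 1418 in wax-stripped cKO skin. Its unaffected recovery arrays read 375 and 500 in WT and 345 and 501 in cKO mice, and its injured imiquimod arrays 517 and 620 in WT and 786 and 569 in cKO mice. The wax arrays of each genotype lay above every other array of that genotype. The difference from unaffected recovery skin was 0.89 ± 0.35 (SE) in WT mice (limma adjusted p = 0.0798) and 1.71 ± 0.35 (SE) in cKO mice (limma adjusted p = 0.00316). Against unaffected imiquimod skin it was 1.75 ± 0.35 and 2.19 ± 0.35 (SE), with limma adjusted p = 0.00433 and 0.000662.

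Member 23 read 1391 and 1246 in wax-stripped WT and 2057 and 1848 in wax-stripped cKO skin. Its injured imiquimod arrays read 1063 and 1243 in WT and 1764 and 1186 in cKO mice, and its unaffected recovery arrays 785 and 753 in WT and 567 and 858 in cKO mice. The wax arrays overlapped none of the unaffected ones and lay just above the injured imiquimod arrays of their genotype. The difference from unaffected recovery skin was 1.46 ± 0.34 (SE) in cKO mice (limma adjusted p = 0.00721). In WT mice it was 0.76 ± 0.34 (SE) and did not pass (limma adjusted p = 0.119). In injured recovery skin both members varied widely between replicates, at 268 and 494 (WT) and 487 and 719 (cKO) for member 17, and at 534 and 1143 (WT) and 678 and 1078 (cKO) for member 23.

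Members 8 and 26 were also above all 8 unaffected arrays on all 4 wax arrays, by less. Such an order was present in 4 of 28 members (8, 17, 23 and 26), against 7.16% of all distinct probe sets and 333 of the 464 lasting ones. Member 26 read 2142 and 2084 in wax-stripped WT and 2169 and 2107 in wax-stripped cKO skin, against 1069 to 1874 in the unaffected arrays. Member 13 was also high, at 2134 and 2761 in WT and 3275 and 2924 in cKO mice, and differed from unaffected recovery skin by 0.58 ± 0.19 (SE) in WT mice (limma adjusted p = 0.0445), a call that was lost in 15 of 29 alternative settings. The lowest members were 10 and 25. Member 10 read 217 to 248 after wax stripping and 322 to 376 in unaffected recovery skin, a difference of -0.66 ± 0.19 (SE) in WT mice (limma adjusted p = 0.0264). Member 25 read 149 and 169 in wax-stripped WT skin against 270 and 305 in unaffected recovery skin (-0.79 ± 0.21, SE, limma adjusted p = 0.0161), and 326 and 268 against 358 and 311 in cKO mice. Member 18, the other low one, read 169 to 250 against 234 to 301.

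The means compared between genotypes in wax-stripped skin came from arrays that the rule did not use. In 25 of the 28 members (89.3%) the mean was higher in cKO than in WT epidermis. The same held for 54.0% of all distinct probe sets and 84.3% of the lasting ones. The members' median difference was 0.31 on the log2 scale against 0.01 over all distinct probe sets. Both cKO arrays lay above both WT arrays in 18 members (64.3%), against 20.7% of all distinct probe sets, and below them in member 7 alone, against 18.8%. The lasting probe sets leaned the same way, with a median of 0.26 and 298 of 464 (64.2%) so ordered. Of the 24 members tested, limma called 1, member 6 (4.17%, against 0.270% of 26310). The other 23 members tested did not pass. An unadjusted p under 0.05 was found in 9 of the 24. No share of all probe sets was counted at that unadjusted threshold, so nothing is read from the 9. The residual variance of this test came from all 20 arrays, 16 of which the rule used, and with the 4 wax arrays alone the count was 0.

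Member 6 read 172 and 161 in wax-stripped WT and 288 and 267 in wax-stripped cKO skin. The genotypes did not overlap, and the difference was 0.69 ± 0.11 (SE, limma adjusted p = 0.0156). Wax-stripped cKO skin lay between unaffected recovery skin and the day 4 imiquimod level of 469 to 509, while wax-stripped WT skin was near unaffected imiquimod skin. The call was lost without any 1 of the 4 wax-stripped arrays and with only the arrays of the comparison, was kept without the 4 injured recovery arrays, and the adjusted p ranged from 0.00509 to 0.219 over 29 alternatives. The largest difference in size was in member 20, at 57.1 and 62.8 in WT and 241 and 163 in cKO mice, which did not pass the test (1.50 ± 0.46, SE, limma adjusted p = 0.364). It passed without either injured imiquimod WT array, which enters only the residual variance here (limma adjusted p = 0.00509 in both fits). Member 25 (0.84 ± 0.21, SE, limma adjusted p = 0.187) and member 17 (0.76 ± 0.35, SE, limma adjusted p = 0.715) did not pass either.

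In the other conditions the members' median genotype difference was smaller, and none passed the test. The rule used all 16 arrays of these conditions and asked for the rise and the return in both genotypes. The genotype difference itself was not part of the rule. These tests are still not fully independent of the choice of members, unlike the means compared after wax stripping. In injured imiquimod skin the median difference, cKO minus WT, was 0.12. There 19 of 28 members (67.9%) were higher in cKO mice, against 49.0% of all distinct probe sets and 72.8% of the lasting ones. Of the 24 members tested limma called 0 (0 at an unadjusted p under 0.05, 0.137% of all probe sets called). The shares of all probe sets called, here and below, hold for the adjusted threshold. No such share was counted for the unadjusted p. In unaffected imiquimod skin the median was 0.02, with 0 called (0 unadjusted; 0.00760% of all called). In injured recovery skin it was 0.15, with 0 called (3 unadjusted; 1% of all called), and in unaffected recovery skin 0.05, with 0 called (1 unadjusted; 0% of all called). The largest differences in injured imiquimod skin were those of member 3 (1.17, not tested), member 20 (0.95 ± 0.46, SE, limma adjusted p = 0.444) and member 5 (-0.67 ± 0.50, SE, limma adjusted p = 0.565), whose WT arrays lie far apart. Without WT replicate 2 the difference of member 5 turned to 0.37, and that of member 20 became 2.03 and passed (limma adjusted p = 0.00564). Without WT replicate 1 they were -1.72 and -0.14, so the directions rested on these arrays.

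The size of the response was also compared between genotypes. The imiquimod rise was larger in cKO than in WT mice in 20 of 28 members, with medians of 1.28 in cKO and 1.23 in WT mice. The lasting probe sets leaned the same way, with medians of 1.70 and 1.45. Over all distinct probe sets the medians were 0.00 and 0.01. For the difference of the rises limma called 0 of 24 members (1 at an unadjusted p under 0.05, with 0.00380% of all called). For the recovery difference it called 0 of 24 as well (0 unadjusted; 0.137% of all called). The rule set a floor on the imiquimod rise and a ceiling on the recovery difference, in both genotypes. It left out the 46 raised probe sets that were under the recovery limit in 1 genotype. The choice of members thus constrained both differences between genotypes, and nothing is read from the counts of 0. Rises were furthest apart in member 3 (1.35 in WT and 2.45 in cKO mice, not tested) and member 5 (2.28 and 1.21).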

How the data were processed

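Epidermis of dorsal skin was freed with dispase, and biotin-labelled cRNA of its total RNA went onto Gene ST arrays from Affymetrix, as the labels' protocols say. Values are the authors' deposited intensity per probe set (linear units); per the submitters' processing notes they used Expression Console and PLIER, a probe-level summary. Their versions and normalization are not given in the sources used for this work. Of 35556 rows, 476 with values identical to an earlier row were removed. Differences are on the log2(intensity + 16) scale, which understates changes of dim probe sets; 16 damps PLIER noise near 0.

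Groups came from the titles. limma 3.58.1 (R 4.3.3; lmFit, eBayes) was fitted as a group-means model over all 20 arrays and the 26310 probe sets at or above the 25th percentile of mean signal, with Benjamini-Hochberg adjustment per comparison over all of them and a threshold of 0.05. The fit was tested on simulated data. Errors are SD over 2 arrays or the limma SE. The members and tests were chosen with earlier results of these data known. Members described singly were the 8 with the largest imiquimod rise and those called between genotypes after wax stripping. Also described were the 3 highest and 3 lowest after wax stripping, the 3 with the largest genotype difference in injured imiquimod skin and those nearest the limits. Members 11, 12, 14, 15, 16, 19, 21, 22, 24 and 26 were named after their values were seen. No same-numbered samples are said to share an animal, so no block was used.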

Additional observations from a re-analysis of the deposited data

Results flagged for a closer look

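In 4 members every array of WT mice moved one way after wax stripping and every array of cKO mice the other way; the difference of the responses itself was not tested. Against unaffected recovery skin, member 20 differed by -0.36 in WT and 0.59 in cKO mice on the log2 scale. Against unaffected imiquimod skin, member 2 differed by -0.22 and 0.22, member 12 by -0.18 and 0.24, and member 25 by -0.55 and 0.53. Of all distinct probe sets, 1.55% were ordered so against unaffected recovery skin and 4.21% against unaffected imiquimod skin. In recovery skin 2.67% of all probe sets and 0 of 28 members moved so.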

How the results depend on the processing

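The rule took 18 probe sets with a pseudocount of 64 (13 of them members), 42 with a pseudocount of 1 (24), 32 after quantile normalization (24) and 28 with identical rows kept. Chosen after seeing the data, a limit against both unaffected skins left 14, and the limit against unaffected imiquimod skin alone gave 42, with 14 members. Without any 1 array it took 21 to 37.

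For members called after wax stripping, the genotype count of 1 became 2 when probe sets under the 50th percentile were removed and 0 with only the arrays of the comparison, which also turned the WT count against unaffected recovery skin from 3 to 6 and the cKO count against unaffected imiquimod skin from 10 to 6. Leaving out 1 array gave 0 to 2 for the genotype difference, 0 to 6 (WT) and 3 to 7 (cKO) against unaffected recovery skin, and 3 to 6 (WT) and 7 to 12 (cKO) against unaffected imiquimod skin. In injured imiquimod skin the genotype count of 0 became 1 without either WT array. The cause of these changes was not tested. Of the 32 single values recomputed, 2 reversed, both genotype differences in injured imiquimod skin: leaving out 1 array gave -1.72 to 0.37 for member 5 and -0.14 to 2.03 for member 20. Values of members under the signal filter were not recomputed. With the replicate number as a block (replicate block) the genotype count after wax stripping stayed at 1, and the 4 wax counts were 4, 5, 5 and 9. The correlation of same-numbered deviations was -0.26 to 0.29 in the 9 comparisons of 2 groups. None of these set the injured against the unaffected area of the same condition and genotype. Whether those areas share animals was therefore not checked, and the correlations cannot decide it.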
